A study of Homo sapiens with 6 samples.

Results

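The 10 genes described here write, copy or erase DNA methylation: the methyltransferase genes DNMT1, DNMT3A, DNMT3B and DNMT3L, the UHRF1 and UHRF2 genes, the dioxygenase genes TET1, TET2 and TET3, and the glycosylase gene TDG. They were chosen by symbol, and all 10 were found among the 48183 gene symbols of the count table, each under 1 Ensembl identifier. Human embryonic stem cells of a line labelled H1 (the study's own text names H9) had been reset from the primed state, which resembles the epiblast after implantation, to the naive state, which resembles the epiblast before implantation. All lines carried the EOS-GFP reporter, in which stem cell enhancers drive a fluorescent protein. Polyadenylated RNA was sequenced from 4 naive and 2 primed libraries.

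The naive libraries differed in how they were induced. AICAR 1 and AICAR 2 came from EOS cells given AICAR, an activator of the kinase AMPK, in PXGL medium. They were taken 14 or 15 passages after day 14 of induction, the first week of that at a lower AICAR dose before the drug was withdrawn, and which library had which passage number is not given in the sources used here. CA-p38 came from a separate EOS line with a doxycycline-inducible, constitutively active p38 kinase, induced with doxycycline in PXGL and taken 12 passages after day 7, with doxycycline withdrawn during expansion. VPA came from EOS cells given valproic acid, a histone deacetylase inhibitor, in Ndiff227 with PD0325901 and LIF only, and was taken 12 passages after day 9, following a change to PXGL. PXGL holds the MEK inhibitor PD0325901, the tankyrase inhibitor XAV939, the protein kinase C inhibitor Go6983 and human LIF. The labels place naive cells on mouse embryonic fibroblast feeders, the study also describes a later move of CA-p38 cells to feeder-free PXGL, and how each sequenced culture stood when it was taken is not given in the sources used here. Naive cells were sorted for the surface markers CD75 and SUSD2. The primed libraries, 1 of the EOS line and 1 of the CA-p38 EOS line, were untreated, grown in StemFit AK02N on Matrigel without feeders, and not sorted. State is therefore tied to medium and sorting in these libraries, and possibly to feeders. AICAR and VPA share 1 primed library as their parent, and the naive group pools 3 ways of induction, so that its spread is between inductions and the 2 AICAR libraries and not between cultures of 1 kind.

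Methylation of cytosine in CpG pairs is set up by DNMT3A and DNMT3B, and DNMT3L, which has no catalytic activity of its own, stimulates them. After replication UHRF1 binds the half-methylated daughter strands and recruits DNMT1, which copies the mark. TET enzymes oxidize methylcytosine, and TDG cuts out the more oxidized bases so that base excision repair can restore an unmodified cytosine. Human naive stem cells are known for low genome-wide methylation compared with primed cells. By immunostaining, the study reported weaker methylcytosine and hydroxymethylcytosine signals in AICAR-induced than in primed cells. For CA-p38-induced cells it also described epigenomic features that it read as naive. In a separate single-cell experiment, it listed DNMT3L (printed as Dnmlt3l) among naive state-related genes of cells moving towards the naive state. Methylation itself was not measured in these libraries, and the values below are transcript levels only.

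Libraries held 46823699 to 54277064 counts, and 3 counts equalled 0.0553 to 0.0641 CPM (counts set relative to library size, the size being scaled by TMM, a method that evens out library composition). Apart from DNMT3L in primed cells, where the counts were 48 and 16, each gene had at least 393 counts in every library. The labels held against their markers: 6 of 6 naive markers were higher and 6 of 6 primed markers lower in naive libraries. Among all genes tested 26% were higher and 27% lower. SUSD2, for which the naive cells had been sorted, was among the naive markers and is not an independent check. The 8 fibroblast markers summed to 39.0 to 80.8 CPM in naive and 192 to 210 CPM in primed libraries, with 1 gene higher and 4 lower in naive libraries by the test used below and none at 0 in all libraries, and their part in the results was not tested. In bulk RNA, fewer cells with a transcript and less of it in each cell cannot be told apart.

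Of the 10 genes, 9 passed an adjusted p of 0.05 in the comparison of states (edgeR quasi-likelihood test, Benjamini-Hochberg adjustment over 26497 genes). DNMT3L, TET1 and TET2 were higher and DNMT1, DNMT3A, DNMT3B, UHRF2, TET3 and TDG were lower in naive libraries, while UHRF1 did not pass. Among all genes tested 53.1% passed, 26% higher and 27% lower in naive libraries. The same 9 genes had naive and primed values that did not overlap, against 64.9% of all genes tested (32.9% with every naive library above and 32.1% with every naive library below). The median log2 difference, naive minus primed, was -0.73 over the 10 genes and 0.11 over all genes tested, and the median size of the difference regardless of sign was 1.54 against 0.85. A change of at least 2-fold with an adjusted p under 0.05 was seen in 7 of the 10 genes and in 35.3% of all genes tested.

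**Figure D1:**
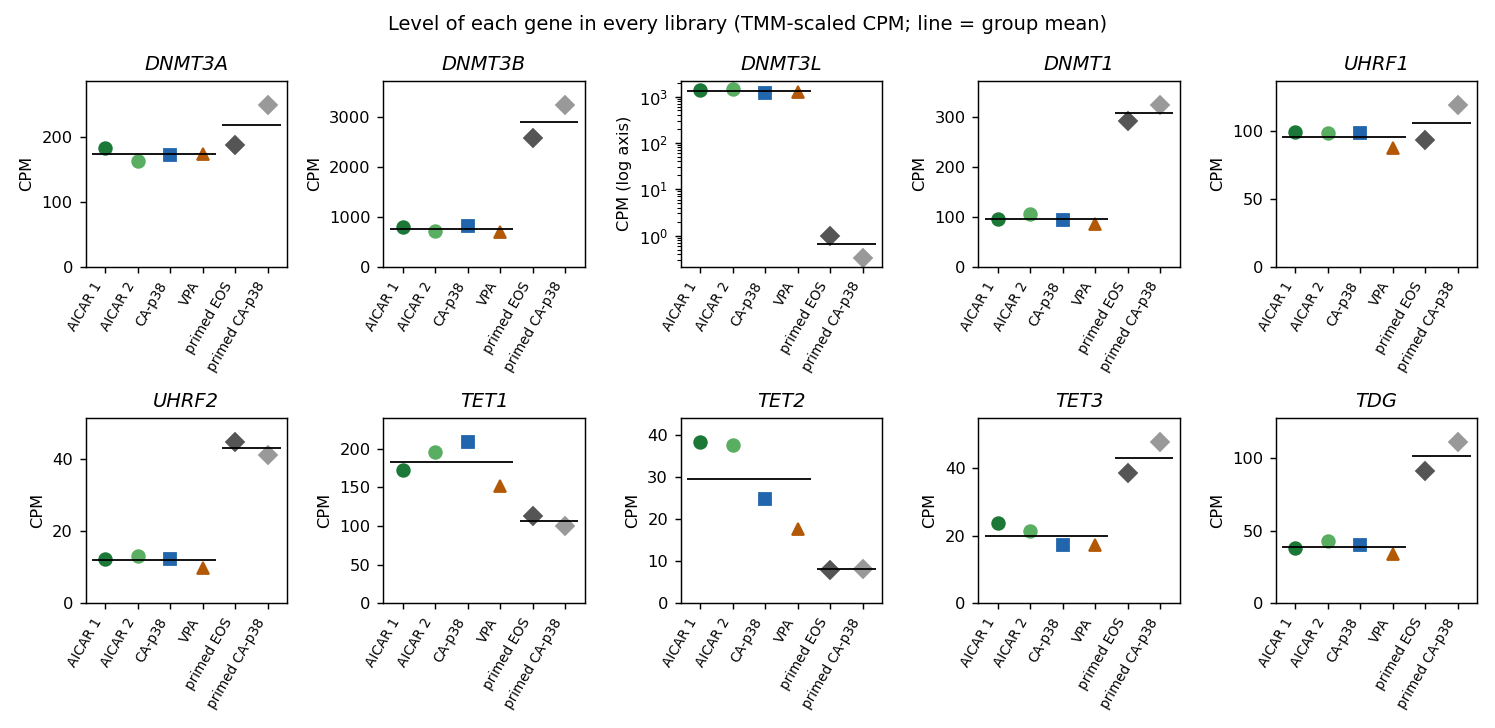
TMM-scaled CPM of each of the 10 genes (vertical axis, linear from 0 except for DNMT3L, which has a log axis) in each of the 6 libraries; horizontal lines are the means of the 4 naive and the 2 primed libraries. DNMT3L lies above 1190 CPM in every naive and below 1 CPM in both primed libraries, and UHRF1 is the 1 gene whose groups overlap.

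DNMT3L (chr21:44246339-44262216, minus strand, GRCh38) separated the states most widely. Across AICAR 1, AICAR 2, CA-p38 and VPA its level was 1396, 1420, 1194 and 1239 CPM, whereas primed EOS had 0.970 CPM and primed CA-p38 had 0.327 CPM. The transcript was thus abundant in all 4 naive libraries, whatever the induction, and low in primed cells, at 48 and 16 counts. The naive mean was 1312 ± 112 CPM (SD, n = 4), the primed mean 0.649 ± 0.455 CPM (SD, n = 2), and the log2 difference 10.97 (SE 0.30, edgeR adjusted p = 3.13e-11), or 2011-fold with a 95% confidence interval of 1277 to 3166. An antisense gene, DNMT3L-AS1, lies within the same stretch. It had 191 to 302 counts in naive and 0 and 2 in primed libraries, at most 4.17% of the DNMT3L count, and whether the counting used strand is not stated.

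DNMT3B (chr20:32762385-32809359, plus strand), a de novo enzyme abundant in pluripotent cells, moved the other way. In AICAR 1, AICAR 2, CA-p38 and VPA it stood at 797, 707, 812 and 685 CPM, and in primed EOS and primed CA-p38 at 2570 and 3228 CPM. Every naive library was far below both primed libraries. Naive and primed means were 750 ± 63.6 CPM (SD, n = 4) and 2899 ± 465 CPM (SD, n = 2), a log2 difference of -1.95 (SE 0.11, edgeR adjusted p = 8.35e-09), which is 3.86-fold lower in naive libraries (95% confidence interval 3.29 to 4.53).

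DNMT3A (chr2:25227855-25342590, minus strand), the other de novo enzyme, differed little. Its naive values were 183, 163, 173 and 175 CPM in the same order, while primed EOS had 188 CPM and primed CA-p38 had 250 CPM. The highest naive library lay just under primed EOS, and most of the difference came from primed CA-p38. The log2 difference was -0.34 (SE 0.12, edgeR adjusted p = 0.0276), 1.26-fold lower in naive libraries (95% confidence interval 1.06 to 1.5). Without primed CA-p38 it was -0.11 with an adjusted p of 0.513, without AICAR 2 it was -0.30 with 0.0635, and with the parental line as a block it was -0.29 with an adjusted p of 0.0611.

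Because the de novo genes moved apart, the composition of the methyltransferase transcripts differed between the states. Levels of different genes were set side by side per kilobase of annotated exon (CPM per kilobase). DNMT3L made up 84.6% ± 1.59 (SD, n = 4) of the summed DNMT1, DNMT3A, DNMT3B and DNMT3L level in naive and 0.0814% ± 0.0662 (SD, n = 2) in primed libraries. DNMT3B made up 13.1% ± 1.48 (SD, n = 4) and 92.0% ± 0.307 (SD, n = 2). With the longest or the MANE Select (the representative) transcript as the length, the naive share of DNMT3L was 79.0% or 81.8%. The 3 genes that encode active enzymes summed to 118 to 137 CPM per kilobase in naive libraries and to 407 and 509 in primed libraries, and with DNMT3L added the sums were 779 to 886 and 407 and 509. On the longest transcript the active enzymes summed to 187 to 217 in naive libraries and to 649 and 810 in primed libraries. Thus DNMT3L transcripts outnumbered those of the active enzymes per length in every naive library and in neither primed library. The ratio of DNMT3A to DNMT3B counts, which needs no length since each gene is compared with itself across libraries, was 0.230, 0.230, 0.213 and 0.255 in AICAR 1, AICAR 2, CA-p38 and VPA and 0.0732 and 0.0773 in primed EOS and primed CA-p38.

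**Figure D2:**
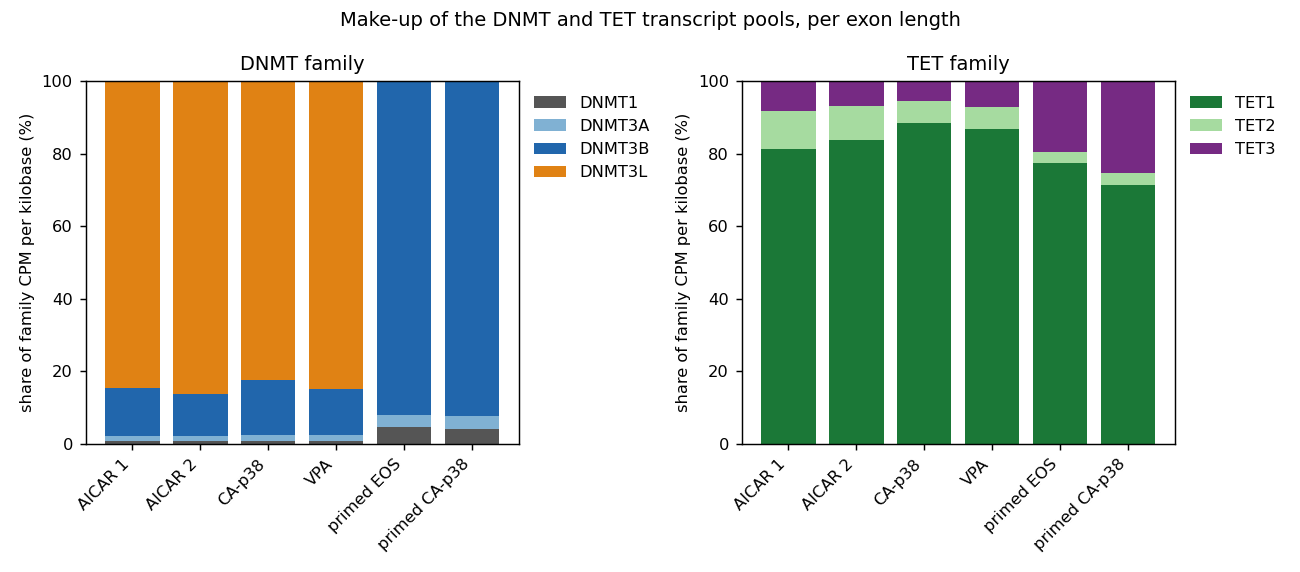
Share (%) of each gene in the summed CPM per kilobase of the DNMT family (left) and the TET family (right) in each of the 6 libraries, stacked from 0 to 100%. DNMT3L fills 82.5% to 86.3% of the DNMT bar in naive libraries, DNMT3B 91.8% and 92.3% in primed libraries, and TET1 is the largest part of the TET bar in all 6.

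Of the maintenance genes, DNMT1 and UHRF2 were lower in naive libraries and UHRF1 was not shown to differ. DNMT1 (chr19:10133342-10231286, minus strand) was at 95.8, 105, 94.4 and 84.8 CPM across AICAR 1, AICAR 2, CA-p38 and VPA, while primed EOS reached 294 CPM and primed CA-p38 324 CPM. All naive libraries lay within a narrow band well below the primed ones. The means were 95.1 ± 8.41 CPM (SD, n = 4) and 309 ± 21.7 CPM (SD, n = 2), and the log2 difference was -1.70 (SE 0.10, edgeR adjusted p = 2.65e-08), 3.25-fold lower (95% confidence interval 2.78 to 3.80). S1PR2, a gene on the same strand that overlaps DNMT1 in the annotation, had 379 to 635 counts, 3.84% to 12.9% of the DNMT1 count.

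UHRF1 (chr19:4903080-4962154, plus strand), which brings DNMT1 to replicated DNA, held 98.7, 98.0, 98.5 and 87.5 CPM in AICAR 1, AICAR 2, CA-p38 and VPA. Primed EOS, at 93.0 CPM, lay inside that range and primed CA-p38, at 119 CPM, above it. The log2 difference was -0.15 (SE 0.12, edgeR adjusted p = 0.321) with a 95% confidence interval of -0.40 to 0.11, which leaves room for a level up to 1.32-fold lower or 1.08-fold higher in naive libraries. Without primed CA-p38 the difference was 0.05, with an adjusted p of 0.813. The counts of DNMT1 and UHRF1 therefore stood in a different ratio in the states, DNMT1 over UHRF1 being 0.971, 1.08, 0.958 and 0.970 in the naive libraries and 3.16 and 2.73 in primed EOS and primed CA-p38.

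UHRF2 (chr9:6413151-6507054, plus strand), a paralog that also binds modified cytosine but does not replace UHRF1 in maintenance, was at 12.3, 13.2, 12.1 and 9.86 CPM in naive libraries and at 44.7 and 41.1 CPM in primed EOS and primed CA-p38. No naive library came near a primed one. The log2 difference was -1.85 (SE 0.15, edgeR adjusted p = 2.76e-07), 3.61-fold lower (95% confidence interval 2.90 to 4.50). Per kilobase of exon, UHRF1 was the larger part of the pair in both states, at 94.0% ± 0.413 (SD, n = 4) in naive and 82.4% ± 3.36 (SD, n = 2) in primed libraries. The primed share of UHRF1 was lower on the longest or the MANE Select transcript, at 67.8% or 69.1%, which takes the primed share of UHRF2 from 17.6% to 32.2% or 30.9%.

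DNMT1 and UHRF1 are both known to be expressed with DNA replication, and their promoters were read because these functional partners differed in response. The RefSeq table of windows from 250 bases before to 50 bases after each start (GRCh38.p14) held 20 windows for 9 of the 10 genes, with none for DNMT3L. They were searched on both strands for the E2F words TTTCCCGC, TTTCCCGG, TTTCGCGC, TTTCGCGG, TTTGCCGC, TTTGCCGG, TTTGGCGC and TTTGGCGG, E2F being the factor family that drives replication genes. At least 1 word was present in 6.19% of all 35116 windows. Of the 20 windows above, 3 held a word, all of them of DNMT1 or UHRF1. These 3 lie inside the gene spans given above and not at the outer ends where those spans begin. Which start sites these cells used is not known. The DNMT1 window (chr19:10194904-10195203, minus strand) held 1 word, which started 2 bases before the start site. The first UHRF1 window (chr19:4909251-4909550, plus strand) held 2 overlapping words, which began 18 and 14 bases before it, and another UHRF1 window held 1. Both windows are shown 5′ to 3′ on the gene's strand, with the words in capitals.
DNMT1: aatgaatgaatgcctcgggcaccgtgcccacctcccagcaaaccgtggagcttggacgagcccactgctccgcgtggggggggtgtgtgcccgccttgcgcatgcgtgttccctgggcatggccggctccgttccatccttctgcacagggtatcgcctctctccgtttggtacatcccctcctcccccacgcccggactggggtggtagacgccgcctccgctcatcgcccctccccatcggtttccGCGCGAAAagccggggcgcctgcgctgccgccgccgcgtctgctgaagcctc
UHRF1: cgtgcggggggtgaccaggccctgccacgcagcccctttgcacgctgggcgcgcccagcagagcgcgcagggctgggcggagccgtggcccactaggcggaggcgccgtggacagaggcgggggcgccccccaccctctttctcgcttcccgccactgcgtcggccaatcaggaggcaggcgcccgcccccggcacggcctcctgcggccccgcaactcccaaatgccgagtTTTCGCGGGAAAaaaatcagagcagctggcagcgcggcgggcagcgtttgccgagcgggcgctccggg

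The same kind of word lay near the start of DNMT1, which was 3.25-fold lower, and of UHRF1, which was not shown to differ. Whether E2F factors had a part in either level was not tested. A match of letters is a description of the sequence and not evidence of binding. CpG pairs numbered 30 in the DNMT1 window and 36 to 46 in the 3 UHRF1 windows, above the upper quartile of 28 over all windows, whose median was 14. Of the 16 genes of the cell cycle list, 2 were higher, 12 lower and 2 did not pass. Among all genes tested 53.1% passed, 26% higher and 27% lower. The log2 differences of the 16 ran from -1.51 for TOP2A to 0.98 for CCNE1, with a median of -0.48. Their summed level was 3191 to 3605 CPM in naive and 5004 to 5607 CPM in primed libraries. PCNA, the replication clamp, was at 247 ± 19.2 CPM (SD, n = 4) and 258 ± 26.4 CPM (SD, n = 2), with an edgeR adjusted p of 0.639. The part of cell cycle differences in the DNMT1 result was not tested.

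**Figure D3:**
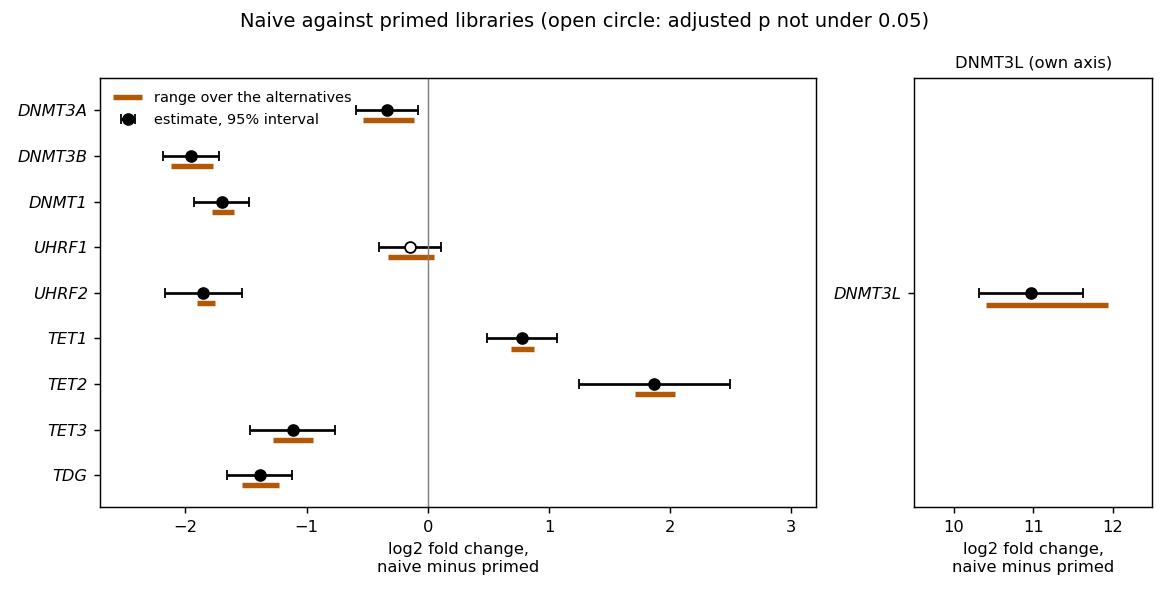
Fitted log2 fold change, naive minus primed, of each gene (points) with its 95% confidence interval (black bars) and the range over 15 alternative analyses (orange bars); DNMT3L has an axis of its own. The interval of UHRF1 spans 0, and DNMT3A lies at -0.34.

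The TET genes divided, with TET1 and TET2 higher and TET3 lower in naive libraries. TET1 (chr10:68560337-68694487, plus strand), the main TET gene of pluripotent cells, was at 173, 196, 209 and 152 CPM across AICAR 1, AICAR 2, CA-p38 and VPA, and at 113 and 99.6 CPM across primed EOS and primed CA-p38. The lowest naive library, VPA, was still above both primed libraries. Its log2 difference was 0.78 (SE 0.13, edgeR adjusted p = 0.000291), 1.71-fold higher (95% confidence interval 1.40 to 2.09). TET1P1, a pseudogene, had 70 to 192 counts, 1.18% to 2.41% of the TET1 count.

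TET2 (chr4:105145875-105279816, plus strand), a dioxygenase without the CXXC DNA-binding domain of its relatives, rose from a low primed level of 7.94 and 8.22 CPM to 38.3, 37.6, 24.6 and 17.7 CPM in AICAR 1, AICAR 2, CA-p38 and VPA. It was the most variable of the 10 genes among naive libraries, with a coefficient of variation of 34.2% against 4.84% to 16.3% for the others. The log2 difference was 1.87 (SE 0.29, edgeR adjusted p = 0.000114), 3.65-fold higher (95% confidence interval 2.38 to 5.62). TET2-AS1, its antisense gene, had 2 to 11 counts.

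TET3 (chr2:73984910-74108176, plus strand), the TET gene known from the oocyte and zygote, was at 23.8, 21.4, 17.3 and 17.2 CPM in naive libraries and at 38.5 and 47.8 CPM in primed EOS and primed CA-p38. The groups did not overlap, and the log2 difference was -1.11 (SE 0.16, edgeR adjusted p = 6.85e-05), 2.17-fold lower (95% confidence interval 1.70 to 2.76). TET2 counts exceeded TET3 counts 1.61-, 1.76-, 1.42- and 1.03-fold in AICAR 1, AICAR 2, CA-p38 and VPA, whereas the ratio was 0.206 and 0.172 in primed EOS and primed CA-p38.

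Per kilobase of exon, TET1 was 85.1% ± 3.23 (SD, n = 4) of the TET sum in naive and 74.3% ± 4.32 (SD, n = 2) in primed libraries. TET3 was 6.95% ± 1.19 and 22.4% ± 4.13, and TET2 was 7.96% ± 2.33 and 3.30% ± 0.187 (SD, n = 4 and 2). In the VPA library the order of TET2 and TET3 depended on the length used, with TET2 at 5.87% and TET3 at 7.27% on the exon union, and at 9.13% and 7.49% on the longest transcript. The TET sum was 22.3 ± 2.92 CPM per kilobase (SD, n = 4) in naive and 14.9 ± 0.482 (SD, n = 2) in primed libraries, with the lowest naive library at 18.3 and the highest primed library at 15.2.

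TDG (chr12:103965822-103988874, plus strand), which removes the oxidized bases that TET enzymes make, was at 38.5, 42.7, 40.0 and 34.1 CPM in AICAR 1, AICAR 2, CA-p38 and VPA and at 91.5 and 111 CPM in primed EOS and primed CA-p38. It was lower in each naive library than in either primed one. The log2 difference was -1.39 (SE 0.12, edgeR adjusted p = 8.51e-07), 2.61-fold lower (95% confidence interval 2.17 to 3.15). Its pseudogene TDGP1 had 5 to 27 counts, at most 1.07% of the TDG count. TET1 and TET2 on one side and TDG on the other thus differed in opposite directions between the states. TET3 was lower in naive libraries, as TDG was.

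Each naive library was also set against the primed library of its own line, as a ratio of scaled counts with 0.5 added to each count and a 95% Clopper-Pearson interval that covers counting error only. There is 1 library per side, so these ratios have no replicate check, and AICAR 1, AICAR 2 and VPA share primed EOS. Libraries varied by more than counting error: the mean squared deviation between AICAR 1 and AICAR 2 was 21.1 times the counting variance, over 24681 genes. DNMT3L was 1424-fold higher in AICAR 1, 1449-fold in AICAR 2, 1264-fold in VPA and 3540-fold in CA-p38. The intervals of the EOS cells, 963 to 1986 in all, did not reach that of CA-p38, 2248 to 6387. Naive levels were similar, and the denominators were 48 counts for primed EOS and 16 for primed CA-p38.

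DNMT3B was 3.22- to 3.98-fold lower and DNMT1 2.79- to 3.46-fold lower in every naive library than in its own parent. UHRF2 was 3.39- to 4.54-fold lower and TDG 2.14- to 2.79-fold lower, and TET3 was 1.62- to 2.76-fold lower. For DNMT3A the ratio was 0.974 (0.947 to 1.002) in AICAR 1, 0.866 (0.840 to 0.892) in AICAR 2, 0.928 (0.902 to 0.956) in VPA and 0.691 (0.673 to 0.711) in CA-p38. The lower DNMT3A level was thus largest in the CA-p38 line and within counting error of no change in AICAR 1. For UHRF1 the ratio was 1.06 in AICAR 1, 1.05 in AICAR 2, 0.941 in VPA and 0.830 in CA-p38, on both sides of 1.

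TET2 was 4.81-fold higher (4.32 to 5.38) in AICAR 1, 4.73-fold (4.24 to 5.29) in AICAR 2, 3.0-fold (2.68 to 3.36) in CA-p38 and 2.22-fold (1.97 to 2.51) in VPA. The AICAR libraries lay above the other inductions beyond counting error, but CA-p38 and VPA have 1 library each and no test between inductions was made. TET1 was 1.35-fold higher in VPA and 2.10-fold higher in CA-p38, with the AICAR libraries between.

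**Figure D4:**
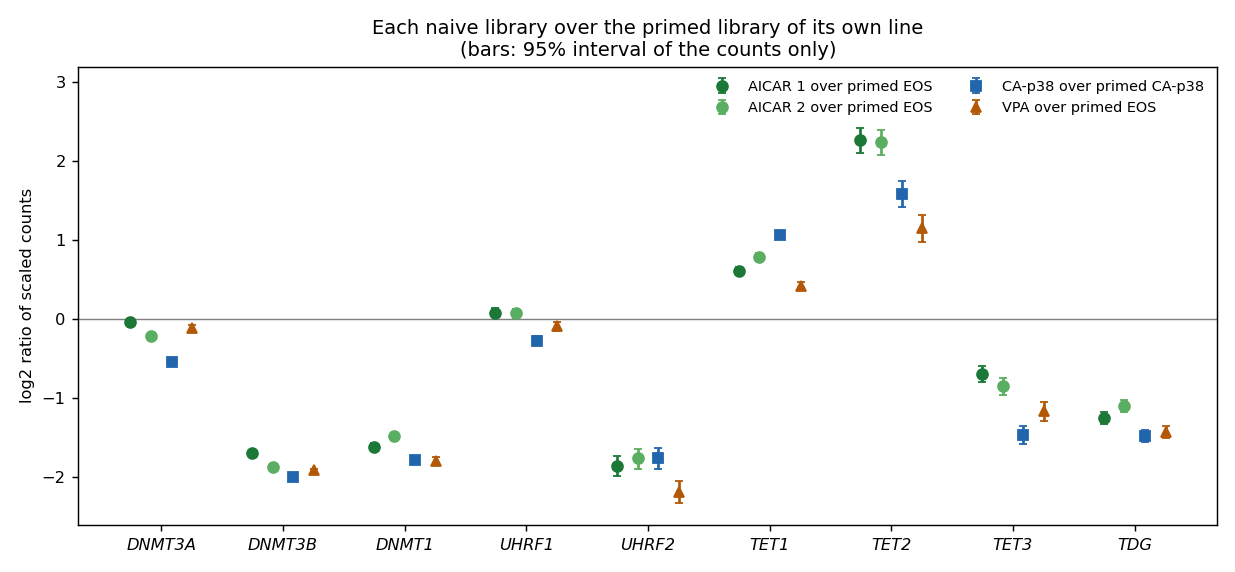
Log2 ratio of each naive library over the primed library of its own line for 9 genes (DNMT3L, at 1264- to 3540-fold, is off the scale); bars are 95% intervals of the counts only. TET2 runs from 2.22-fold in VPA to 4.81-fold in AICAR 1, and UHRF1 lies on both sides of 0.

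Whether the naive minus primed difference itself differed between the EOS and the CA-p38 line was tested as an interaction. None of the 10 genes passed (edgeR, adjusted p 0.99994 for each), and 1 gene of 26497 did (0.00377%), with 853 at an unadjusted p under 0.05. Without VPA 28 genes passed and without AICAR 2 there were 3, none of the 10 among them. Of the 10, DNMT3L alone had an unadjusted p under 0.05, at 0.00297, with a difference of 1.38 (SE 0.35) on the log2 scale, CA-p38 line minus EOS line. The intervals were wide: for DNMT3A the difference was -0.42 with a 95% confidence interval of -0.89 to 0.06, for TET1 0.45 with -0.11 to 1.01, and for TET2 -0.39 with -1.73 to 0.96. The spread in this test came from the 3 naive EOS libraries alone, which differed in induction.

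Among the naive libraries, VPA was the lowest for 8 of the 10 genes, DNMT3A and DNMT3L being the exceptions, and the highest for none. Over all genes tested VPA was the lowest naive library for 26.7%. The 8 genes come from 1 library and were not tested as a group. The gap was small for most: the highest naive library exceeded VPA 1.13-fold for UHRF1, 1.18-fold for DNMT3B, 1.24-fold for DNMT1, 1.25-fold for TDG, 1.34-fold for UHRF2, 1.37-fold for TET1 and 1.38-fold for TET3, and 2.17-fold for TET2. Between the primed libraries, primed CA-p38 was above primed EOS for 7 of the 10 genes, against 53.1% of all genes tested.

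Genes with the most similar pattern over the 6 libraries were found by the root mean square difference of centred log2 CPM among the 12604 genes whose mean reached 5 CPM. For DNMT3L these were ALPG (0.247), NLRP7 (0.267), DPPA5 (0.283), KHDC1L (0.560) and ALPP (0.701). For DNMT3B they were CBL (0.0387), SSX2IP (0.0570), ASPM (0.0604), CAP2 (0.0698) and PATZ1 (0.0701). The nearest gene was TLE1 for DNMT1, ABHD16A for DNMT3A, AC048338 for UHRF1, CDYL for UHRF2, ZNF217 for TET1, KTI12 for TET2, MSL2 for TET3 and TXNDC16 for TDG, at distances of 0.0309 to 0.0626 except for TET2, at 0.180. DPPA5 is itself a naive marker. With 6 libraries in 2 states, a small distance says mainly that both the state difference and the order of libraries were alike.

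The 10 genes work with others, and 48 further genes of the pathway were taken in 7 lists. Of these, 34 passed (70.8%, against 53.1% of all genes tested), 8 higher and 26 lower in naive libraries. Among all genes tested 26% were higher and 27% lower. The median log2 difference of the 48 genes was -0.42. The largest was DPPA3, whose protein is known to displace UHRF1 from chromatin and so hinder maintenance. The naive mean of DPPA3 was 382 ± 45.3 CPM (SD, n = 4), the primed mean 0.569 ± 0.139 CPM (SD, n = 2), and the log2 difference 9.39 (SE 0.22, edgeR adjusted p = 1.17e-11). It is also among the naive markers above.

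Each list below is to be read against all genes tested, of which 53.1% passed, 26% higher and 27% lower in naive libraries. The lists are small and none was tested as a set. Of 7 partners of maintenance, 5 were lower, 0 higher and 2 did not pass. PCLAF, a PCNA-binding factor, was 6.52-fold lower, and CDCA7L and CDCA7 were 3.38- and 3.28-fold lower; CDCA7 works with HELLS in remodelling nucleosomes for methylation. Of 7 genes of the MBD and ZBTB families, most of which encode readers of methylated DNA, 2 were higher, 2 lower and 3 did not pass. MBD3, a subunit of the NuRD repressor that in mammals does not bind methylated CpG selectively, was 2.19-fold higher, while ZBTB33 (Kaiso) and ZBTB38 were 2.13- and 1.91-fold lower. Of 11 base excision repair genes, which include other glycosylases as well as later steps, 5 were lower, 0 higher and 6 did not pass. NEIL3, a glycosylase, was 3.03-fold lower, APEX1, the abasic site endonuclease, 1.79-fold lower, and UNG, the uracil glycosylase, 1.51-fold lower.

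Of 8 TET partners and enzymes of the TET cofactor 2-oxoglutarate or its antagonist 2-hydroxyglutarate, 6 were lower, 1 higher and 1 did not pass. The shares over all genes tested were 27% lower and 26% higher. CXXC4, a TET2-binding protein, was 20.4-fold lower, with a naive mean of 0.498 ± 0.406 CPM (SD, n = 4) and a primed mean of 10.1 ± 0.156 CPM (SD, n = 2). QSER1, which guards regulatory regions against de novo methylation together with TET1, was 6.66-fold lower, and IDH2, a mitochondrial isocitrate dehydrogenase and 1 of several sources of 2-oxoglutarate, 5.44-fold lower. Of 8 genes of the methyl donor cycle, 3 were higher and 4 lower. MAT2A, which makes S-adenosylmethionine, was 1.75-fold lower and AHCY, which clears its product, 1.46-fold lower, whereas AHCYL2, a relative of AHCY, was 2.37-fold higher.

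Of 6 enzymes of histone marks that steer or shield methylation, 4 were lower and 1 higher, against 27% and 26% of all genes tested. NSD2 and NSD1, which place the H3K36 dimethylation that DNMT3A binds, were 4.43- and 1.73-fold lower, and EHMT2 (G9a), an H3K9 methyltransferase, was 2.78-fold lower, counted over 7 identifiers of the same symbol. KDM1B, which removes H3K4 methylation ahead of de novo methylation in oocytes, was 1.59-fold higher and was named after its value was seen.

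**Figure D5:**
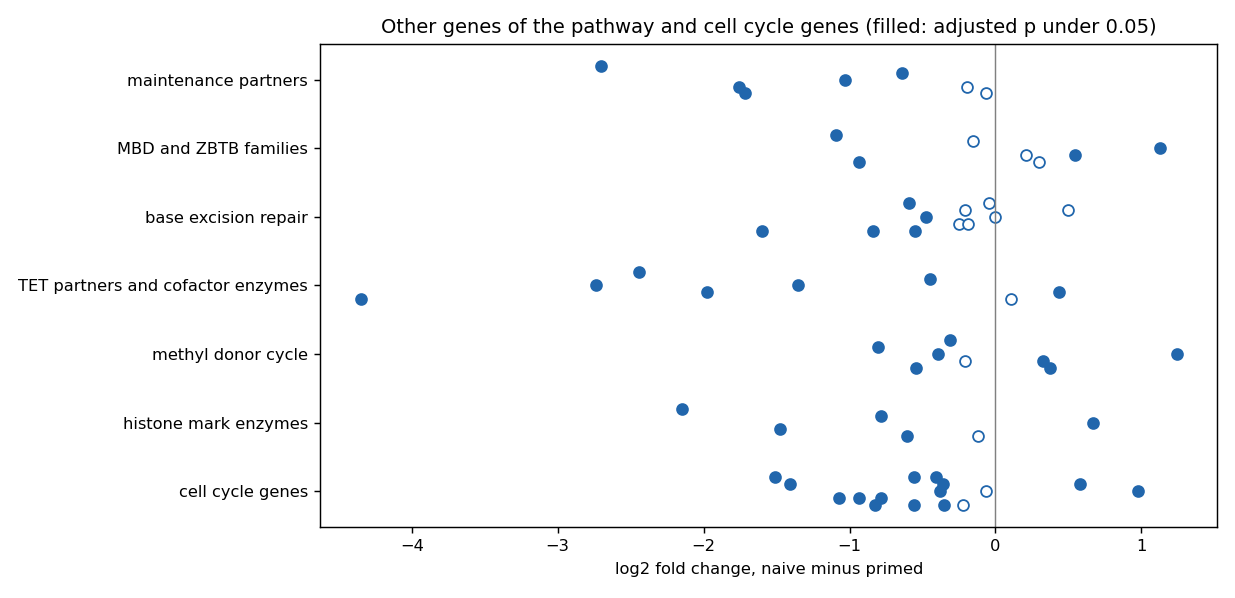
Log2 fold change, naive minus primed, of the further pathway genes and of the 16 cell cycle genes, 1 point per gene and 1 row per list (vertical scatter within a row carries no value); filled points have an adjusted p under 0.05. DPPA3, at 9.39, is off the scale, and CXXC4 is the leftmost point.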

How the data were processed

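RNA was measured in 4 naive and 2 primed libraries. The authors trimmed reads with Trim Galore 0.4.4 and cutadapt 1.15 and mapped them with Bowtie2 to the Ensembl GRCh38 cDNA and noncoding RNA sequences. The deposited values are counts per Ensembl identifier, not normalized, with alignments kept from a mapping quality of 1 upwards. Strand use in counting is not stated, reads shared by near-identical transcripts may be lost at that cutoff, and isoforms were not told apart. The 26 spike-in rows, which reached at most 1 count, and 23 columns of other studies were not used.

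Identifiers sharing a symbol were summed, which also merges some distinct loci of clone-type names. The states were compared in edgeR 4.0.16, run under R 4.3.3 (quasi-likelihood test, TMM scaling, filterByExpr by state, common dispersion 0.0563, Benjamini-Hochberg adjustment, threshold 0.05). The fit had first been tried on simulated data in which far fewer genes changed than were called here. That trial therefore does not bear on the scaling or on false calls in these libraries. Exon lengths came from GENCODE 44 on GRCh38. DESeq2 1.42.0, limma 3.58.1 (voom), other scalings and filters, and left-out libraries were alternatives. Every library was counted as a separate sample. Nothing says that these came from separate cultures, so the p-values measure the spread between these libraries.

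All 10 genes were named. In each further list the 3 genes with the largest change among those past the threshold were named, plus DPPA3. The genes and lists were chosen with earlier results of these data known. Lengths by MANE Select transcript, and family shares by other lengths, were added after seeing the data.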

Additional observations from a re-analysis of the deposited data

Results flagged for a closer look

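UHRF1 in the VPA library, at 87.5 CPM, stood apart from the other 3 naive libraries, which lay between 98.0 and 98.7 CPM. Its gap to the nearest library was 0.942 of the range of the 4 naive values, above Dixon's 95% critical value for 4 samples. That test takes the values as samples of 1 kind, whereas these libraries came from 3 inductions. It cannot tell an outlying library from close agreement among the other 3. All 10 genes were tested in this way and this 1 stood out, while chance flags about 1 group in 20.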

How the results depend on the processing

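Over 15 alternatives, 145 of the 150 naive against primed results of single genes kept their direction and their side of the threshold. UHRF1 turned to 0.0486 on the log2 scale without primed CA-p38, and ran from -0.32 (without primed EOS) to 0.0486 over the left-out libraries. DNMT3A lost its call with library totals (-0.23, adjusted p = 0.0743), with the parental line as a block (-0.29, adjusted p = 0.0611), without AICAR 2 (-0.30, adjusted p = 0.0635) and without primed CA-p38 (-0.11, adjusted p = 0.513). The block changed no other call of the 10 genes. Of the 48 further pathway genes, 34 passed in the main fit, 8 of them higher in naive libraries. With library totals 35 passed, 10 of them higher, and without AICAR 1 it was 31, 4 of them higher. The median of the 10 genes was -0.62 with library totals and ran from -0.91 (without primed EOS) to -0.53 (without primed CA-p38) over the left-out libraries. The interaction was called in 2 genes with median-ratio factors, 3 with library totals, 8 without a filter, 0 with at least 10 counts in every library, and in 1 to 28 with an EOS library left out (28 without VPA), none of them among the 10. The cause of these changes was not tested. Levels per kilobase depended on the length: 16 of 20 naive means moved by more than their SD on the longest or MANE Select transcript, DNMT1 from 6.18 to 13.3 or 18.0 CPM per kilobase. Ratios over the own primed line left their counting interval in 19 of 80 cases, each with library totals and none of the 19 changing direction. The scaling moved the median log2 difference of all genes from 0.11 to 0.21 with library totals and 0.06 with median-ratio factors. With a lone primed library, that library is assumed to vary like the naive ones.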
